A study of Homo sapiens with 12 samples.

Results

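The genes described here carry the MHC class I pathway from peptide to cell surface: the heavy chains HLA-B, HLA-C, HLA-E and HLA-F, the light chain B2M, the peptide transporter subunits TAP1 and TAP2, and the immunoproteasome subunits PSMB8 and PSMB9. They were taken by symbol from the deposited gene table, and all 9 were found among its 24556 symbols and among the 11929 symbols whose mean reached 1 FPKM. FPKM counts fragments relative to transcript length and library size, a level per length. RNA was sequenced from LM2 cells, a derivative of the MDA-MB-231 breast cancer line selected for metastasis to lung. The 4 groups held 3 libraries each: cells transduced with a scramble shRNA, cells transduced with an EZH2 shRNA, cells transfected with a scramble siRNA, and cells transfected with a ZRANB1 siRNA. The EZH2 shRNA and the ZRANB1 siRNA were each compared with the scramble control of its own kind, and the labels name neither the hairpin or siRNA sequence nor the time of harvest. Nothing in the labels ties the libraries to separate cultures, and p-values then measure the spread between these libraries, which may be technical.

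MHC class I molecules are present on nearly all nucleated cells and show fragments of the cell's own proteins to CD8 T cells. The proteasome cuts proteins into peptides, the TAP1-TAP2 transporter moves them into the endoplasmic reticulum, and there a heavy chain pairs with B2M and binds a peptide before it leaves for the surface. Interferon raises transcription of these genes and exchanges catalytic subunits of the standard proteasome for those of the immunoproteasome, and tumour cells often carry low class I levels.

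EZH2 encodes the histone methyltransferase of the Polycomb system, and ZRANB1 a deubiquitinase. EZH2 RNA was 35.4 ± 1.07 FPKM (SD, n = 3) with the scramble shRNA and 16.5 ± 0.681 with the EZH2 shRNA, a log2 difference of -1.06 (limma adjusted p = 1.34e-05). ZRANB1 RNA was 11.4 ± 0.795 FPKM with the scramble siRNA and 10.0 ± 1.31 with the ZRANB1 siRNA, a log2 difference of -0.17 (adjusted p = 0.349), so a lower level of the target was not shown in the libraries labelled ZRANB1 siRNA. In these libraries EZH2 RNA was 28.3 to 32.4 FPKM against 46.5 to 50.6 with the scramble siRNA (adjusted p = 5.43e-05). Of 5 marker genes of mesenchymal-like breast cancer lines, 5 were at 1 FPKM or more, with summed group means of 3636 to 3876 FPKM, most of it VIM.

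Marker genes are given as values, with no test, in the order scramble shRNA, EZH2 shRNA, scramble siRNA, ZRANB1 siRNA. Among the line's markers CD44 was at 265, 261, 118 and 206 FPKM, and KRT8 at 188, 184, 267 and 221. Of 6 luminal markers 3 reached 1 FPKM, with sums of 17.9, 16.3, 59.3 and 40.5, and PGR was at 0. Within them GATA3 was at 6.75, 4.88, 3.70 and 4.80, EPCAM at 3.53, 4.34, 8.23 and 7.13, and KRT19 at 7.53, 7.07, 47.4 and 28.6. Of 10 leukocyte markers 2 reached 1 FPKM, with sums of 38.7, 39.0, 40.8 and 42.9, and CD3D and MS4A1 were at 0 in every library. These were CD14, at 3.90, 2.87, 0.243 and 0.867, and CD68, at 34.4, 35.6, 40.2 and 41.7. Of 7 endothelial and fibroblast markers COL1A1 alone reached 1 FPKM when all 12 libraries were averaged. The sums were 26.6, 21.1, 8.48 and 18.0. PECAM1 was at 1.574, 1.095, 0.316 and 0.678, above 1 FPKM in the shRNA groups only. AXL was at 316, 340, 349 and 310, KRT18 at 272, 247, 353 and 317, and VIM at 2836, 2605, 2573 and 2675. COL1A1, PECAM1, CD44, CD14, GATA3 and VIM were thus lowest with the scramble siRNA, as the class I genes given below were. KRT8, KRT18, KRT19, EPCAM and AXL were highest there, and CD68 was highest with the ZRANB1 siRNA. The part of these markers in the results was not tested. In bulk RNA fewer cells with high class I and less class I RNA per cell cannot be told apart.

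Promoter sequences are shown first because the genes moved together and class I promoters are known for a shared set of short elements. RefSeq promoters (GRCh38.p14, 250 bases before to 50 after a start) were matched for 8 of the 9 genes in 10 windows. The 250 bases before the start are printed 5′ to 3′ for HLA-B, HLA-C and HLA-F, for B2M and for both transporter subunits, with motif matches in capitals.

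HLA-B, chr6:31357180-31357429, minus strand: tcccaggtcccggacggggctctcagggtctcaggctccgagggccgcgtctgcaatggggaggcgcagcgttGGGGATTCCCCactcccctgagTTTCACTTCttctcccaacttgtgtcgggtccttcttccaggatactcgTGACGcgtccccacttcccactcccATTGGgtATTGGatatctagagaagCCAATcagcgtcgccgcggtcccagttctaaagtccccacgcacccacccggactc
HLA-C, chr6:31272093-31272342, minus strand: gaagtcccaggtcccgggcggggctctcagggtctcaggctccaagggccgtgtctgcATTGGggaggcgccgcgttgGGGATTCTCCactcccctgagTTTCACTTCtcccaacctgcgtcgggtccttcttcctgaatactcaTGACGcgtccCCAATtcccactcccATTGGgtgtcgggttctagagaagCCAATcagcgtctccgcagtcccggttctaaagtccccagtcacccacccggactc
HLA-F, chr6:29723184-29723433, plus strand: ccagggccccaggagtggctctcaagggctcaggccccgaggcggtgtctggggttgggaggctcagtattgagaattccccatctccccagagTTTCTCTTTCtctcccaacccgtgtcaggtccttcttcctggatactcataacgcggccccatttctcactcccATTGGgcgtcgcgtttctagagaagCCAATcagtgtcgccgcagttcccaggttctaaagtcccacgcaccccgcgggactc
B2M, chr15:44711267-44711516, plus strand: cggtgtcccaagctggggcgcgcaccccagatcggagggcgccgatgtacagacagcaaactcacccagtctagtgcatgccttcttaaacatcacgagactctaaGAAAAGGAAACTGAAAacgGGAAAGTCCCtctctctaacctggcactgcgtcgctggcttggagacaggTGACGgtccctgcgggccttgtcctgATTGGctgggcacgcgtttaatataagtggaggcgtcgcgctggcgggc
TAP1, chr6:32853705-32853954, minus strand: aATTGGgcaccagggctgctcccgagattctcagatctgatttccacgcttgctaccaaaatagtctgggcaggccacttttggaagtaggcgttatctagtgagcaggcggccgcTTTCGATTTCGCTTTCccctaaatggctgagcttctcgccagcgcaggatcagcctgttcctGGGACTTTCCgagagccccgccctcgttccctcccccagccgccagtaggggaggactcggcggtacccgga
TAP2, chr6:32838740-32838989, minus strand: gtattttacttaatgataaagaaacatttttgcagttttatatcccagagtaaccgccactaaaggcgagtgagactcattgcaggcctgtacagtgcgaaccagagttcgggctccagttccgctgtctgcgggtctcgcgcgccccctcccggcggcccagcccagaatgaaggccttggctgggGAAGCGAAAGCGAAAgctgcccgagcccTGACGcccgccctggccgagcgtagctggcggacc

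The motifs searched on both strands were interferon response elements in 2 spacings (GAANNGAAA, and a longer form, GAAA then NN then GAAA, which was added after the first matches were seen), the core of a gamma-activated site (TTCNNNGAA), the core of a cAMP response element (TGACG), the CCAAT box and the NF-kB consensus, which is given by name. Matches could overlap, as the adjoining NF-kB matches of HLA-B and the longer-form matches of B2M and TAP1 do. GAANNGAAA was found in the windows of 4 of 8 genes, HLA-B, HLA-C, TAP2 and PSMB8, and in 7.65% of 34796 RefSeq promoters of the same length. The longer form was found in 5 genes, HLA-F, TAP1, TAP2, B2M and PSMB8, and in 3.57% of all promoters. The NF-kB consensus was found in 4 genes, HLA-B, HLA-C, TAP1 and B2M, and in 11.3% of all promoters. TGACG was found in 6 genes and in 24.5% of promoters, the CCAAT box in 6 genes and in 34.6%, and the gamma-activated site core in 2 genes and in 7.67%. A gene was counted if any of its windows matched, while the shares of all promoters are by window. By window GAANNGAAA was in 4 of 10, the longer form in 5 and the NF-kB consensus in 4. TGACG and the CCAAT box were in 6 of 10 windows each and the gamma-activated site core in 2. HLA-B and HLA-C carried the same order of elements, the NF-kB match starting at -177 and -172, the GAANNGAAA match at -155 and -151 and TGACG at -106 and -105 from the start. In the HLA-F window CCAAT matched at -82 and -57 and the longer form at -156. TAP1 and PSMB9 start 488 bases apart on opposite strands, and their windows share 13 bases. These matches describe letters in the reference and say nothing of binding in LM2 cells.

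Class I levels in LM2 cells were highest with the scramble shRNA and lowest with the scramble siRNA, and the EZH2 shRNA and ZRANB1 siRNA groups lay between them. All 9 genes had the order of group means scramble shRNA, EZH2 shRNA, ZRANB1 siRNA, scramble siRNA, from high to low, as did 15.4% of all tested genes. Of the 1210 genes called higher with the ZRANB1 siRNA than with its control, 86.5% had a ZRANB1 siRNA mean between the scramble controls. The spread in level between members was wide: with the scramble shRNA B2M stood at 1059 ± 103 FPKM (n = 3 for this and all means below), HLA-B at 278 ± 24.4, HLA-C at 125 ± 9.85, HLA-E at 101 ± 6.97 and HLA-F at 6.74 ± 1.37. PSMB8 stood at 51.8 ± 2.47, TAP2 at 37.3 ± 1.34, PSMB9 at 22.8 ± 1.62 and TAP1 at 20.4 ± 2.69. The libraries of PSMB9 (21.3 to 24.5 FPKM) and TAP1 (18.1 to 23.4) overlapped, as neighbours in this order.

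**Figure D1:**
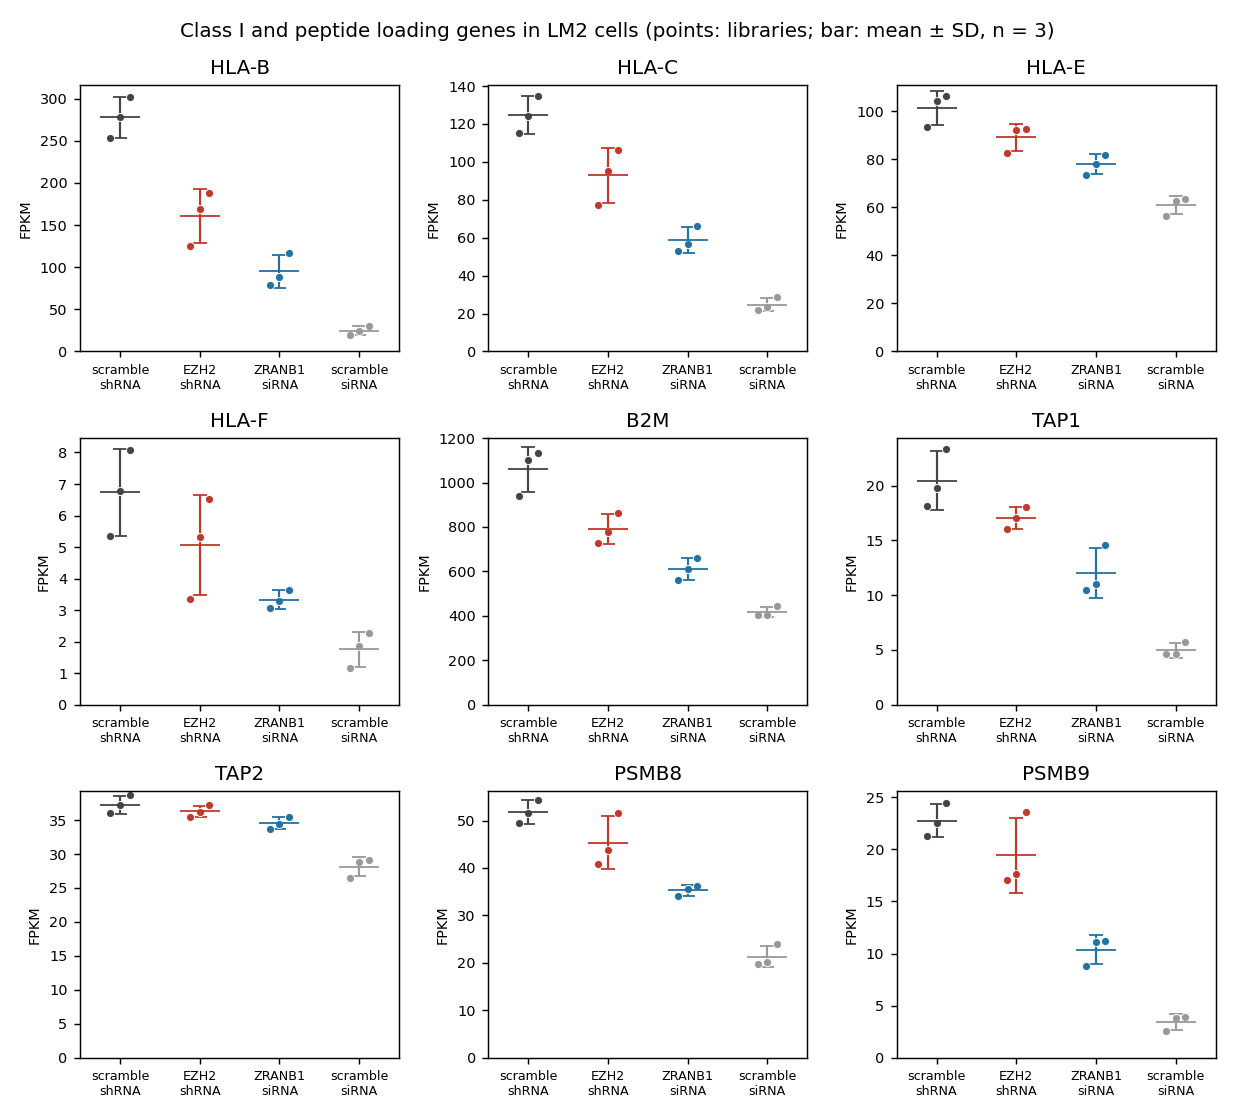
FPKM of the 9 genes in each of the 12 libraries, on linear axes from 0 that differ between panels; points are libraries, horizontal lines group means and error bars SDs (n = 3). In every panel the scramble shRNA mean is highest and the scramble siRNA mean lowest, with HLA-B spread furthest by ratio (302 to 19.1 FPKM) and TAP2 least (38.6 to 26.5).

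The scramble controls differed from each other in all 9 genes, which were lower with the scramble siRNA, as were 25.1% of all tested genes. The ranges of the 3 libraries did not overlap for any of the 9, against 29.2% of all genes on that side. HLA-B was 253, 278 and 302 FPKM with the scramble shRNA and 19.1, 24.4 and 29.7 with the scramble siRNA. This was 11.4-fold lower, a log2 difference of -3.47 (limma SE 0.19, adjusted p = 6.41e-08). HLA-C was 5.06-fold lower and PSMB9, the immunoproteasome subunit that replaces PSMB6, 6.64-fold lower. TAP1 was 4.11-fold, HLA-F 3.83-fold, B2M 2.53-fold and PSMB8 2.43-fold lower. HLA-E, a heavy chain that is the ligand of NKG2A receptors on natural killer cells, was 1.67-fold lower, and TAP2 1.32-fold lower. The median log2 difference of the 9 was -1.49, against 0.011 over all tested genes. Transduction and transfection were used for different groups, so the delivery method and anything else that went with it cannot be told apart.

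With the ZRANB1 siRNA all 9 genes were higher than with the scramble siRNA, a direction called in 10.1% of all tested genes. The ranges did not overlap for any of the 9, against 18.5% of all genes on that side, and each exact permutation p was 0.1, the smallest that 3 libraries against 3 allow. The median log2 difference was 0.71, against -0.017 over all genes.

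Among the heavy chains, HLA-B had the largest difference. Its libraries were at 79.0, 88.8 and 117 FPKM with the ZRANB1 siRNA, all above the scramble siRNA libraries given above and below every scramble shRNA library. The rise was 3.89-fold (log2 1.92, SE 0.19, limma adjusted p = 3.81e-05). HLA-C, the main ligand of killer immunoglobulin-like receptors, was at 22.1, 23.4 and 28.5 FPKM with the scramble siRNA and at 53.2, 56.6 and 66.2 with the ZRANB1 siRNA. It rose 2.38-fold (log2 1.22, adjusted p = 7.45e-05). HLA-E ranged from 56.5 to 63.4 FPKM in the control and from 73.7 to 82.0 with the ZRANB1 siRNA, a 1.28-fold rise (adjusted p = 0.0105). HLA-F, a nonclassical heavy chain, was at 1.15 to 2.26 and 3.08 to 3.65 FPKM, a 1.90-fold difference of means (log2 0.67, adjusted p = 0.0473). This call lies near the threshold and was lost in 6 of 12 alternatives. Over all 12 the adjusted p ran from 0.0303 to 0.171.

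B2M is the light chain that class I heavy chains pair with. It was at 404, 405 and 444 FPKM with the scramble siRNA and at 562, 610 and 662 with the ZRANB1 siRNA. The groups were apart, and the rise was 1.46-fold (log2 0.55, SE 0.0917, limma adjusted p = 0.00185). HLA-B and HLA-C thus changed by larger factors than the light chain, and HLA-E by a smaller one; the differences between genes were not tested. The ratio of HLA-B to HLA-E group means, both in FPKM, was 2.74 with the scramble shRNA, 1.80 with the EZH2 shRNA, 0.401 with the scramble siRNA and 1.22 with the ZRANB1 siRNA. In the scramble siRNA group HLA-E was therefore the higher of the pair.

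The transporter subunits form a heterodimer, and their RNAs changed by unlike amounts. TAP1 was at 4.58, 4.58 and 5.75 FPKM with the scramble siRNA and at 10.4, 11.04 and 14.6 with the ZRANB1 siRNA, a 2.42-fold rise (log2 1.12, limma adjusted p = 0.000133). TAP2 was at 26.5, 28.9 and 29.1 FPKM and at 33.7, 34.5 and 35.4, a 1.23-fold rise (log2 0.29, adjusted p = 0.00837). Both pairs of groups were apart. TAP2 exceeded TAP1 in each group, with a ratio of group means of 1.82 with the scramble shRNA, 2.13 with the EZH2 shRNA, 5.67 with the scramble siRNA and 2.87 with the ZRANB1 siRNA. In reference transcripts (GENCODE 29) 31.3% of the 50-base runs of TAP2 also occur in another gene's transcripts, so its FPKM could hold reads of another annotated gene.

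The immunoproteasome subunits followed the same direction. PSMB9 was at 2.53, 3.81 and 3.94 FPKM with the scramble siRNA and at 8.83, 11.1 and 11.2 with the ZRANB1 siRNA, a 3.03-fold rise (log2 1.37, limma adjusted p = 9.05e-05). PSMB8, which replaces PSMB5, was at 19.9 to 23.9 and 34.1 to 36.3 FPKM, a 1.66-fold rise (adjusted p = 0.00041). No library of one group reached the range of the other for these genes.

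With the EZH2 shRNA 2 of the 9 genes, HLA-B and B2M, were lower than with the scramble shRNA, against 3.03% of all tested genes called in that direction, and 0 were higher (0 at an unadjusted limma p below 0.05). HLA-B was at 125, 169 and 188 FPKM, below all scramble shRNA libraries, a 1.73-fold lower mean (log2 -0.80, SE 0.19, limma adjusted p = 0.0303). B2M was at 729, 779 and 864 FPKM against 941, 1101 and 1133, a 1.34-fold lower mean (log2 -0.42, adjusted p = 0.0214). Both calls depended on the setting: HLA-B was lost in 7 of 13 alternatives (adjusted p 0.0281 to 0.104 over all 13) and B2M in 6 of 13 (0.017 to 0.128 over all 13). The log2 difference kept its sign in all of these alternatives.

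The other genes did not pass the test with the EZH2 shRNA. HLA-C had 77.4, 95.4 and 106 FPKM against 115, 124 and 135, a log2 difference of -0.43 (95% interval -0.72 to -0.14, limma adjusted p = 0.0805). HLA-E had a log2 difference of -0.18 (adjusted p = 0.213) and TAP1 of -0.25 (adjusted p = 0.316). In these 2 genes, in HLA-B, HLA-C and B2M, 5 of 9 in all, the libraries of the groups did not overlap, against 11.6% of all genes on that side. HLA-F, PSMB8 and PSMB9 had overlapping libraries, with log2 differences of -0.37, -0.19 and -0.23 and exact permutation p of 0.2, 0.3 and 0.3. TAP2 was at 35.5 to 37.2 FPKM against 36.0 to 38.6, a log2 difference of -0.037 with a 95% interval of -0.17 to 0.098. The median difference of the 9 was -0.25, against -0.014 over all tested genes.

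The effects of the ZRANB1 siRNA and the EZH2 shRNA, each measured from its own control, differed in all 9 genes, and in 6.91% of all tested genes in that direction. The difference of effects, ZRANB1 siRNA minus EZH2 shRNA, was largest for HLA-B, at 2.72 on the log2 scale (SE 0.269, limma adjusted p = 5.98e-05). It was smallest for TAP2, at 0.32 (adjusted p = 0.0366). The call was lost for TAP2 in 9 of 18 alternatives (adjusted p 0.0141 to 0.0894 over all 18) and for HLA-F in 10 of 17 (0.0224 to 0.134 over all 17). The controls sit at opposite ends of the range in every one of the 9 genes, so this difference contains the difference between the controls. The levels themselves ran the other way: the ZRANB1 siRNA libraries lay wholly below the EZH2 shRNA libraries in 8 of 9 genes, against 18.9% of all tested genes. HLA-F was the exception, at 3.08 to 3.65 FPKM against 3.36 to 6.52. By limma the ZRANB1 siRNA and EZH2 shRNA levels were not called different for HLA-F (adjusted p = 0.132) or HLA-E (adjusted p = 0.0944). TAP2 was not called either (log2 -0.069, adjusted p = 0.438). These groups also differ in delivery method, which cannot be told apart from the target.

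**Figure D2:**
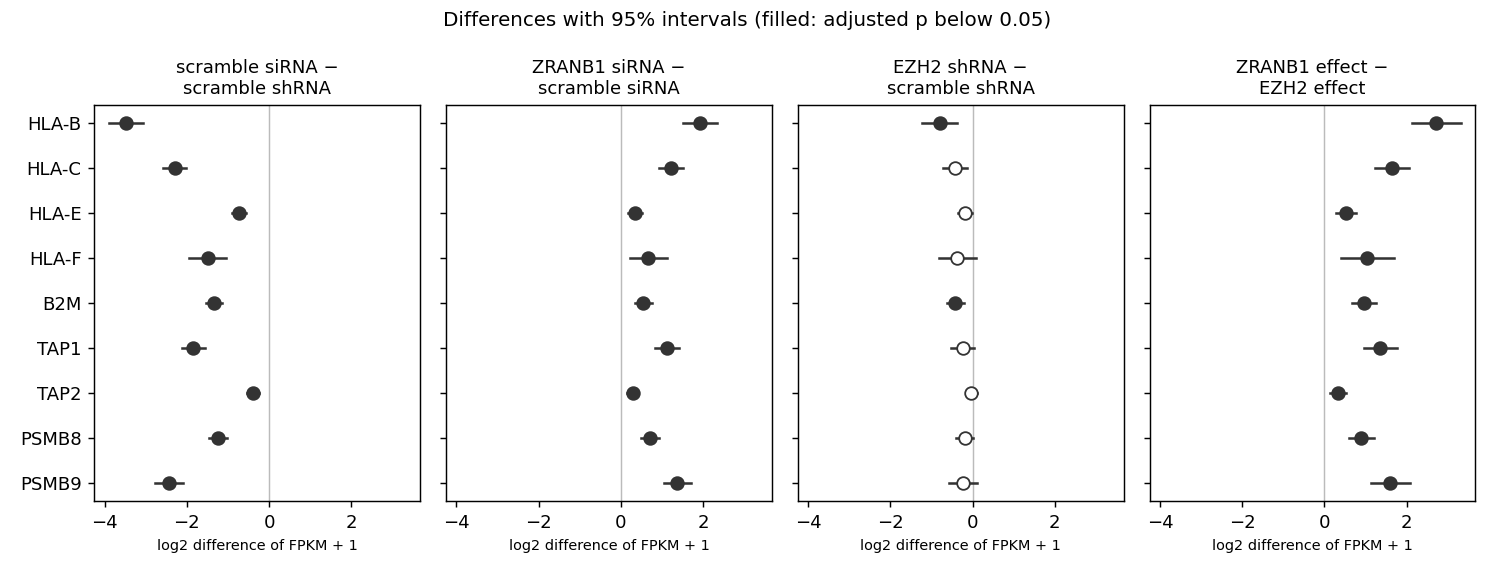
Log2 differences of FPKM + 1 for the 9 genes in 4 comparisons, with 95% intervals from limma; filled points have an adjusted p below 0.05. In the EZH2 shRNA panel HLA-B and B2M are filled, and in the other panels all 9 points are.

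As a share of the scramble shRNA mean, HLA-B stood at 8.78% with the scramble siRNA and 34.2% with the ZRANB1 siRNA, B2M at 39.5% and 57.7%, and TAP2 at 75.6% and 92.7%. In the distribution of all tested genes, 0.704% had a larger rise than HLA-B with the ZRANB1 siRNA and 13.9% a larger one than TAP2. Between the scramble controls 0.285% of genes had a larger fall than HLA-B and 19.7% than TAP2.

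**Figure D3:**
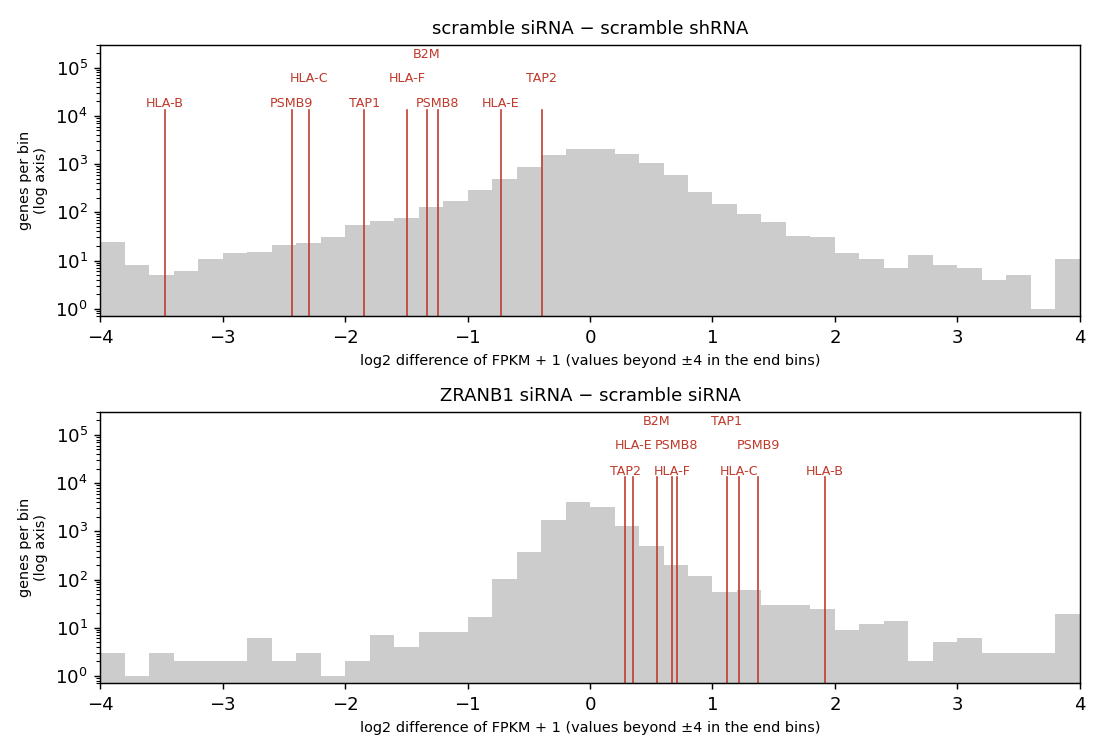
Number of genes per bin of log2 difference over all 11929 tested genes, on a log axis, with a line for each of the 9 genes; values beyond 4 on either side stand in the end bins. Between the scramble controls the lines run from HLA-B at -3.47 to TAP2 at -0.39, and with the ZRANB1 siRNA from TAP2 at 0.29 to HLA-B at 1.92.

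Of the standard catalytic subunits, which the immunoproteasome subunits replace, PSMB5 and PSMB6 were not called with the ZRANB1 siRNA and PSMB7 rose. PSMB10, the third exchanged subunit, was at 65.5 FPKM with the scramble shRNA, 21.7 with the scramble siRNA and 32.8 with the ZRANB1 siRNA, and rose with the ZRANB1 siRNA (log2 0.58, limma adjusted p = 0.0354). PSMB5 was at 109, 141 and 127 FPKM in these groups and PSMB6 at 163, 212 and 207, and neither passed the test with the ZRANB1 siRNA (log2 -0.15 and -0.029, adjusted p = 0.402 and 0.893). Between the controls both were higher in the siRNA libraries (adjusted p = 0.0113 and 0.00933). PSMB7 moved with the class I genes, from 138 to 108 FPKM between the controls and to 128 with the ZRANB1 siRNA (log2 0.24, adjusted p = 0.0268). The ratio of PSMB6 to PSMB9 group means was 7.15 with the scramble shRNA, 8.13 with the EZH2 shRNA, 61.8 with the scramble siRNA and 19.9 with the ZRANB1 siRNA. In the same order PSMB5 to PSMB8 was 2.095, 2.603, 6.608 and 3.605, and PSMB7 to PSMB10 was 2.101, 2.564, 4.982 and 3.909. These other pairs thus shifted in the same direction by smaller factors. The proteasome activator subunit PSME2 rose with the ZRANB1 siRNA (log2 0.26, adjusted p = 0.0226), and PSME1 was not called with it (log2 0.015, adjusted p = 0.897). With the EZH2 shRNA PSME1 fell (log2 -0.27, adjusted p = 0.0154), and PSME2 missed the threshold (log2 -0.24, adjusted p = 0.0559).

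**Figure D4:**
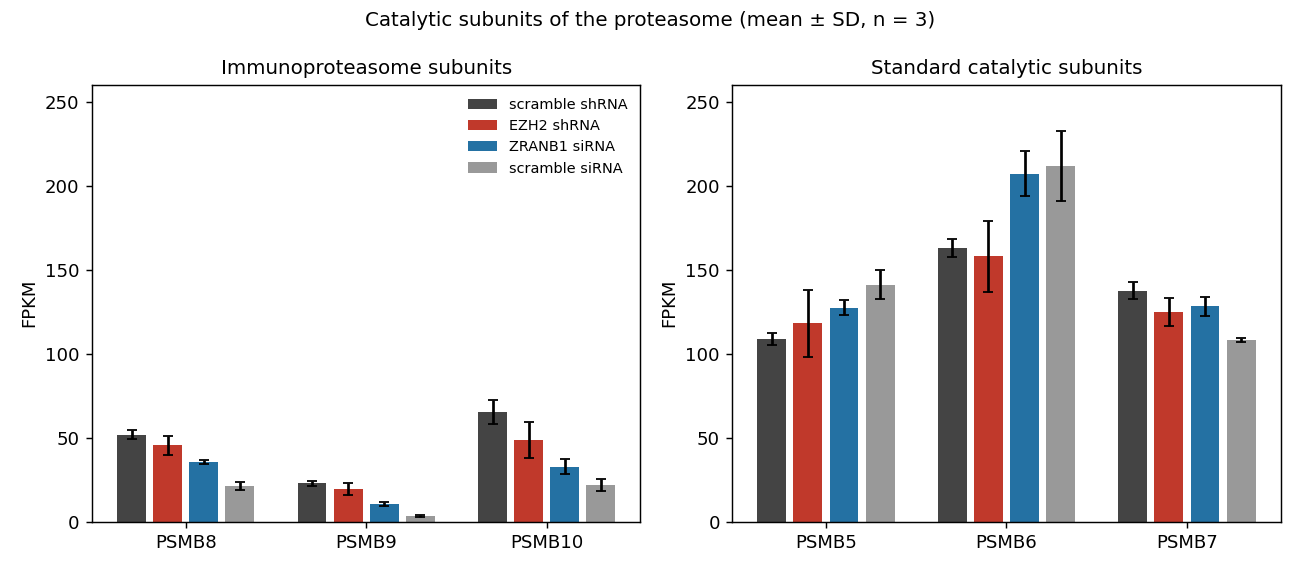
Mean FPKM with SD (n = 3) of the immunoproteasome subunits (left) and of the standard catalytic subunits they replace (right), on the same linear scale. PSMB8, PSMB9 and PSMB10 are lowest with the scramble siRNA, as is PSMB7, while PSMB5 and PSMB6 are highest there.

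Genes for loading and trimming of peptides in the endoplasmic reticulum were partly called. Over all tested genes 10.1% were called higher with the ZRANB1 siRNA and 25.1% lower between the controls. With the ZRANB1 siRNA 2 of 6 tested rose, the trimming peptidases ERAP1 (9.17 to 13.7 FPKM, log2 0.53, limma adjusted p = 0.00603) and ERAP2 (1.18 to 1.97, log2 0.45, adjusted p = 0.01), and 0 fell (0 at an unadjusted p below 0.05). The oxidoreductase PDIA3 (80.3 and 93.4 FPKM, adjusted p = 0.167) and TAPBPL (0.781 and 1.26, adjusted p = 0.246) did not pass. With the EZH2 shRNA 0 of 6 were called by limma (2 lower at an unadjusted p below 0.05), and between the scramble controls 5 of 6 were lower with the siRNA. TAPBP, which encodes tapasin, the bridge between heavy chain and transporter, has no row of its own. A merged row of TAPBP and its neighbour ZBTB22, chosen after its values were seen, was at 152 FPKM with the scramble shRNA, 145 with the EZH2 shRNA, 68.5 with the scramble siRNA and 101 with the ZRANB1 siRNA (log2 0.55 against the scramble siRNA, adjusted p = 0.000954).

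Of 12 regulators of class I transcription 3 rose with the ZRANB1 siRNA (10.1% of all tested genes did) and 0 fell by limma (6.5% of all did, and of the regulators 2 were lower at an unadjusted p below 0.05). NLRC5, the transactivator of class I promoters, was at 1.75 ± 0.223 FPKM with the scramble siRNA and 3.26 ± 0.401 with the ZRANB1 siRNA (log2 0.63, limma adjusted p = 0.00135). IRF1, an interferon-induced activator, was at 7.34 ± 0.241 and 13.8 ± 0.631 (log2 0.82, adjusted p = 2.07e-06), and NFKB1 at 13.3 and 17.0 (adjusted p = 0.0339). NLRC5 and IRF1 were at 5.53 and 22.6 FPKM with the scramble shRNA, the highest group for each, as for the 9 genes. RFX5, a subunit of the factor that binds class I promoters, went from 24.9 to 20.8 FPKM (adjusted p = 0.0534). With the EZH2 shRNA 0 of 12 were called by limma (3 lower at an unadjusted p below 0.05); IRF1 had a log2 difference of -0.18 (adjusted p = 0.0911) and NLRC5 of -0.28 (adjusted p = 0.136).

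Of 7 interferon receptors and their kinases 1 was called higher with the ZRANB1 siRNA and 0 lower, too few to read against 10.1% of all genes. The gene called was JAK1 (17.6 to 24.3 FPKM, log2 0.45, limma adjusted p = 0.0013). IFNGR2 (adjusted p = 0.183) and IFNAR1 (adjusted p = 0.276) were not called, and IFNGR1 missed the threshold (11.2 to 15.6, adjusted p = 0.0522). Of 8 tested other heavy-chain and class I-like genes 3 rose, against 10.1% of all genes, and 0 fell (0 at an unadjusted limma p below 0.05), among them the IgG receptor FCGRT (log2 0.47, adjusted p = 0.0385) and the stress ligand ULBP2 (log2 0.40, adjusted p = 0.0446). The class I pseudogene HLA-H missed it (log2 0.51, adjusted p = 0.0864). Of 4 tested class II genes 0 rose (0 at an unadjusted limma p below 0.05), too few to read against 10.1% of all genes. CIITA, the class II transactivator, fell with the ZRANB1 siRNA (3.14 to 1.93 FPKM, log2 -0.50, adjusted p = 0.0284). CD74, the invariant chain, was at 50.9 FPKM with the scramble shRNA, 38.8 with the EZH2 shRNA, 77.9 with the scramble siRNA and 62.7 with the ZRANB1 siRNA. Its mean was highest where the 9 genes were lowest, but lowest with the EZH2 shRNA. CD74 was not called with the ZRANB1 siRNA (log2 -0.31, limma adjusted p = 0.0971).

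Apart from B2M, the genes lie in the MHC region of chromosome 6. Other genes that RefSeq lists between the outermost of them were counted without any HLA gene and without the genes of the lists above. Of this reduced set 56 were tested, and 6 were called higher with the ZRANB1 siRNA, near the 10.1% of all tested genes. By limma 0 were called lower (5 lower at an unadjusted p below 0.05). The 6 were CFB, IER3, PPP1R18, DDR1, GNL1 and HCG18, named after their values were seen. Their log2 differences were 1.81, 1.68, 0.55, 0.45, 0.39 and 0.37. The median of the 56 was -0.003, against 0.71 for the 9 genes. Between the scramble controls 21 of the 56 were lower with the siRNA (25.1% of all genes were) and 3 higher, and with the EZH2 shRNA 0 were called by limma in either direction (2 higher and 5 lower at an unadjusted p below 0.05).

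The genes whose 4 group means ran most like the average of the 9 included OASL, WNT5A, GPR157 and PLAUR, by distance between centred log2 means. The distances were 0.0618, 0.0665, 0.111 and 0.111 log2 units over 4 groups. TAP1, the nearest of the 9 genes themselves, lay at 0.178. The genes named above were picked as nearest among all other tested genes and TAP1 among 9. Their smaller distances therefore cannot be read against that of TAP1. HLA-B lay furthest from the average, at 1.30, and TAP2 at 0.976.

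Class I heavy chains are near-identical in parts, and reads of one can be assigned to another. In the reference transcripts 2.48% of the 50-base runs of HLA-B also occur in HLA-C, and 2.72% occur in any other gene. For HLA-C the share in any other gene was 5.38%, for HLA-E 4.34%, for HLA-F 0.977%, for PSMB9 2.89%, for TAP1 0.88%, and for B2M and PSMB8 0. For 100-base runs the share fell to 0 for HLA-B, HLA-F and TAP1, 0.126% for HLA-C, 0.491% for HLA-E and 1.26% for PSMB9, and was 30.3% for TAP2. These shares hold for the reference alleles, and the alleles of LM2 cells and the read length were not stated, so the values of single heavy chains are uncertain to an extent that was not measured.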

How the data were processed

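RNA-seq of LM2 cells was read from 1 table of FPKM values that the authors deposited, with 26006 rows and 12 library columns. The tools named per the submitters' processing notes were Cuffdiff 2.2.1, Cufflinks 2.2.1, TopHat2 2.1.1 and SAMtools, and the build hg19. Their options, annotation and strand setting, and each library's depth, were not given in the sources used here. The unit FPKM depends on library composition and holds no depth, so no counting interval is given.

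Within each gene the 3 values of a group were sorted as text, in 100% of rows with 3 different values (16.7% by chance). A column therefore does not follow a library, and sums or ratios over genes are of group means. Of rows with the same symbol the one with the highest mean was kept; each of the 9 genes had only 1 row above 0.

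Values were tested as log2(FPKM + 1) for 11929 symbols with a mean of at least 1 FPKM, with limma 3.58.1 (R 4.3.3): all 12 values, 1 mean per group, 8 residual degrees of freedom, intensity trend, Benjamini-Hochberg adjustment over all tested genes, calls at an adjusted p below 0.05. Log2 differences are on that scale and understate the change of low genes, and fold changes are ratios of mean FPKM. The script was tested on simulated data. Exact permutation tests were two-sided. Motif positions count from the RefSeq start, with no position 0. The alternatives were a pseudocount of 0.1, a minimum mean of 5 FPKM or none, scaling per group, summed repeat rows, no trend, the compared groups alone, and each value left out in turn.

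The 9 genes and the lists were chosen with earlier results of these data known. Genes named were the 9, the targets, NLRC5, IRF1, TAPBP, PSMB10 and PSMB5 to PSMB7, up to 4 per list by adjusted p with the ZRANB1 siRNA and up to 2 called with the EZH2 shRNA, and the 5 genes nearest to the mean pattern. Some genes that this rule takes are not reported here.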

Additional observations from a re-analysis of the deposited data

Results flagged for a closer look

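The effect of the ZRANB1 siRNA differed from that of the EZH2 shRNA, each against its own scramble control, in all 9 genes by the interaction term in limma. The differences of effects on the log2 scale were 2.72 for HLA-B, 1.65 for HLA-C, 0.53 for HLA-E, 1.04 for HLA-F, 0.97 for B2M, 1.36 for TAP1, 0.32 for TAP2, 0.90 for PSMB8 and 1.60 for PSMB9. The call was lost for HLA-F in 10 of 17 alternatives and for TAP2 in 9 of 18. The scramble controls differed from each other in the same genes by -0.39 (TAP2) to -3.47 (HLA-B), and delivery and control cannot be told apart.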

How the results depend on the processing

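No paired analysis was possible because a column holds values of different libraries in different rows. For the EZH2 shRNA the count of 2 lower genes became 0 with the compared groups alone (3 at an unadjusted limma p below 0.05) and 0 with no filter on low values (4 at that p), and ran from 0 to 2 when 1 value was left out. With the compared groups alone the calls over all genes with the EZH2 shRNA went from 404 higher and 361 lower to 104 and 81. The counts of 9 with the ZRANB1 siRNA, between the scramble controls and for the difference of effects stayed within 1.5 times in every alternative run. At a minimum mean of 5 FPKM HLA-F was not tested, and 8 of 8 were called in each of these. The difference of effects lost its call for HLA-F in 10 of 17 alternatives (adjusted p 0.0224 to 0.134 over all 17) and for TAP2 in 9 of 18 (0.0141 to 0.0894 over all 18). No log2 difference of the 9 genes changed sign. A left-out value is 1 number per gene drawn in a seeded random order, not 1 library. Depth was unknown, so HLA-F, at 1.15 to 8.10 FPKM, had the lowest levels and the least known precision.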
